A study of Mus musculus with 15 samples.

Results

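The satellite cell markers were 8 genes, *Pax7*, *Myf5*, *Cdh15*, *Vcam1*, *Heyl*, *Hey1*, *Megf10* and *Chrdl2*, taken by exact gene name from the expression table of mouse quadriceps muscle, which lists 12529 genes. All 8 were in the table. Values were FPKM, in which read numbers are scaled by transcript length and library depth, so levels can be compared between genes. The mean over the 15 libraries was at least 0.5 FPKM, the minimum for the fit across genes, for 6 of the 8, and *Myf5* and *Megf10* were below it.

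RNA-seq was performed on whole quadriceps of C57BL/6 mice in 3 groups with 5 libraries each. Ex mice were wild type and had running wheels for weeks, mTg mice were sedentary and carried a *Ppargc1a* (PGC1α) transgene, and control mice were wild type and sedentary. Per the study's methods the mice were male and the transgene was driven by the muscle creatine kinase promoter, which is active in muscle fibers. The labels give neither an age nor whether each library came from a separate animal, and the p-values therefore cover the spread among libraries only, some of it possibly technical. Reads per library, recovered from the FPKM, ranged from 11475817 to 16917490. *Ppargc1a* had 50.1 to 56.8 FPKM in mTg, 4.87 to 7.34 in Ex and 5.06 to 12.5 in controls, so the transgenic libraries stood apart from all others as labelled. *Acta1*, the actin of the muscle fiber, averaged 16300 FPKM in mTg and 24600 in controls, and the highest value of any of the 8 markers in any library was 9.73 FPKM.

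Satellite cells are the resident stem cells of skeletal muscle, lying between the fiber and its basal lamina. At rest they are marked by the transcription factor Pax7 and by adhesion proteins that anchor them to the fiber, and Notch signaling is known to keep them from activating. On activation they express the myogenic factors that commit them to divide, differentiate and fuse. In whole muscle, fewer satellite cells, less of a marker's RNA per cell and a change of its RNA in other cells cannot be told apart.

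*Pax7*, *Cdh15* and *Myf5* were lower in mTg than in controls, to 0.547, 0.484 and 0.39 times the control mean FPKM. *Heyl*, *Hey1* and *Vcam1*, which cells other than satellite cells also express, were higher, to 1.87, 1.28 and 1.26 times the control mean. In Ex, none of the 6 members tested across genes differed from controls at an adjusted p under 0.05. Both comparisons use the same 5 control libraries, so they are given side by side and not as independent results.

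Promoters are shown for *Pax7*, *Myf5* and *Cdh15*, the members with a promoter window at hand, which were also the members lower in mTg. RefSeq windows (GRCm38.p6) covering 250 bases before and 50 bases after an annotated start were found for 3 of the 8 members. They are given 5′ to 3′ on the strand of the gene, with the E-box letters CANNTG, read the same on both strands and bound by the myogenic basic helix-loop-helix factors, in capitals.
Pax7 (chr4:139832919-139833218, minus strand): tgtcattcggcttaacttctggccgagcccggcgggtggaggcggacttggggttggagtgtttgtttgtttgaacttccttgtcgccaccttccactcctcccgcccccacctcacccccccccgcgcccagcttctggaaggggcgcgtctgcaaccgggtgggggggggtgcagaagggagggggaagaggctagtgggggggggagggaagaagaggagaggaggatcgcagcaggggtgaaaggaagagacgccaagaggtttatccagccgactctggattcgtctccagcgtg
Myf5 (chr10:107486085-107486384, minus strand): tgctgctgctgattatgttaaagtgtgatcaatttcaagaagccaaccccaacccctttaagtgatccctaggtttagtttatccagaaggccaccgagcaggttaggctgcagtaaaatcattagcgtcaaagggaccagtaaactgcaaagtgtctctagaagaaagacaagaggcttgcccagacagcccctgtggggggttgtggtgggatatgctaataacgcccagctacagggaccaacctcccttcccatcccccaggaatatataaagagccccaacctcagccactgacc
Cdh15 (chr8:122848124-122848423, plus strand): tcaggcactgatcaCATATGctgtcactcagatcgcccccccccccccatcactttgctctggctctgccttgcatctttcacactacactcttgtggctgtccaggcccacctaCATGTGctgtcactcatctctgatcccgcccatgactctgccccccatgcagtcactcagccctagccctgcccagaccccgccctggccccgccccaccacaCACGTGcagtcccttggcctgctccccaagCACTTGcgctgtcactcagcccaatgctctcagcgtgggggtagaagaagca
The *Cdh15* window held 4 E-boxes, at positions -236, -135, -32 and -2 relative to the start base, and the *Pax7* and *Myf5* windows held 0. The same letters occur in 72.3% of all 32851 promoter windows of this length, so a match is a description of the letters and not a site. TGGGAA, the letters of an RBPJ site in the Notch pathway, occurred on either strand once in the *Myf5* window and in neither other window, against 25.6% of all windows. AAGGTCA, a half-site of the estrogen-related receptors that partner with PGC1α, occurred in none of these 3 windows and in 4.72% of all.

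In the GENCODE M21 annotation (GRCm38) all 8 members are protein coding. *Pax7* spans 139737062 to 139833528 on chromosome 4, *Myf5* 107482908 to 107486134 on chromosome 10 and *Cdh15* 122847966 to 122867397 on chromosome 8. The *Pax7* and *Cdh15* windows above start inside these spans, at a RefSeq start downstream of the outermost GENCODE one. *Vcam1* spans 116109949 to 116129688 and *Hey1* 8663359 to 8667256 on chromosome 3, *Heyl* 123233556 to 123249875 on chromosome 4 and *Chrdl2* 100006172 to 100034728 on chromosome 7. *Cdh15* overlaps the gene model Gm20388 on the same strand and *Vcam1* an antisense gene, Gm43109, neither of which is in the table. How reads shared with such genes were assigned is not stated in the sources used here.

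**Figure D1:**
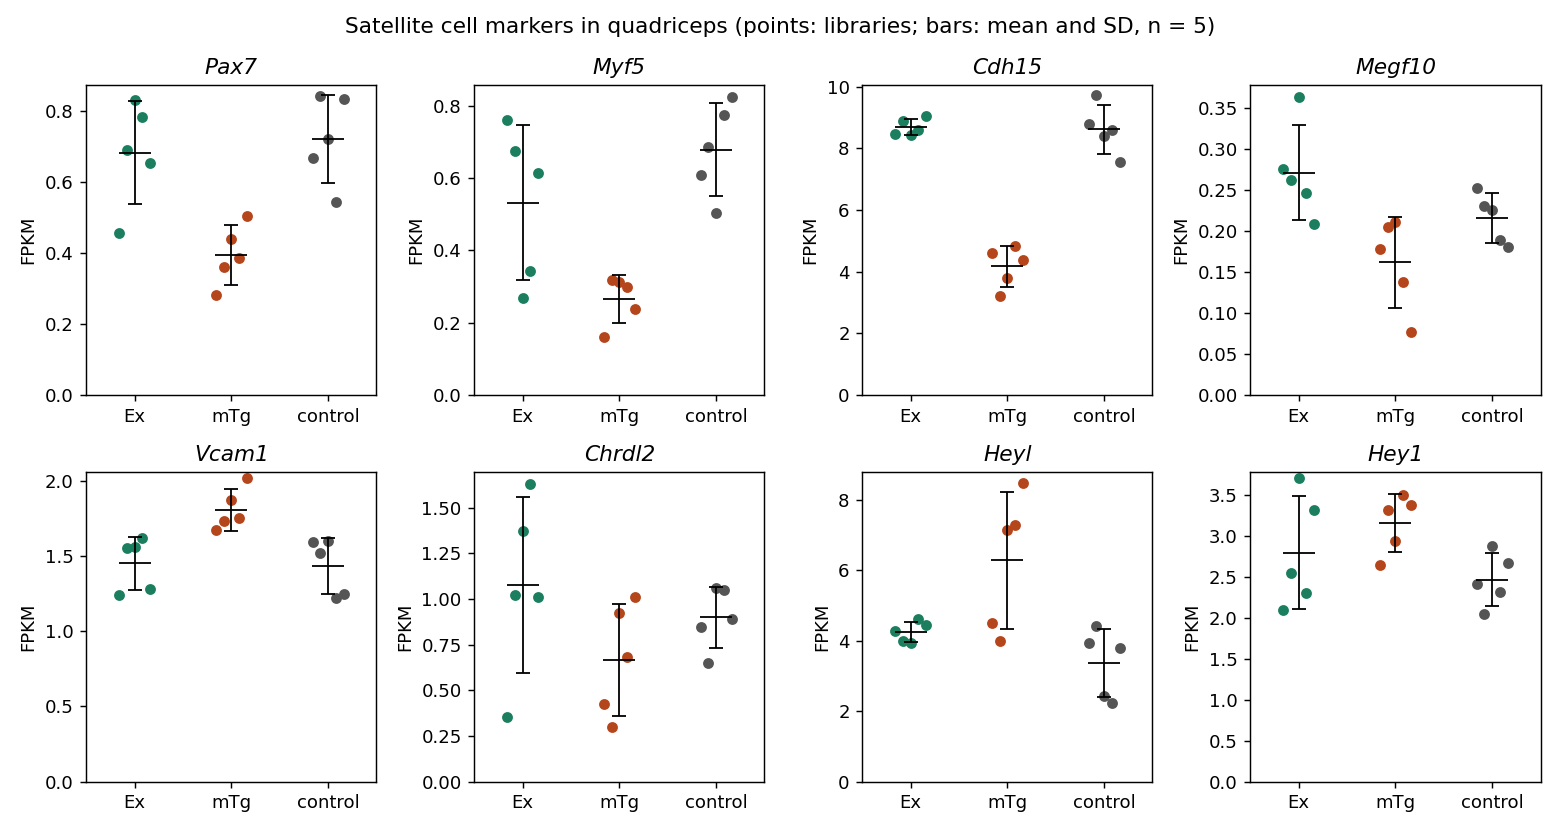
FPKM of the 8 satellite cell markers in each quadriceps library (points) of the Ex, mTg and control groups, with the mean and SD of the 5 libraries as bars. The mTg libraries lie below all control libraries for *Pax7*, *Myf5* and *Cdh15* and above them for *Vcam1*, and the Ex libraries overlap the controls for all 8 genes.

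*Pax7* encodes the paired-box transcription factor that defines satellite cells. It had 0.456, 0.69, 0.83, 0.782 and 0.652 FPKM in Ex, 0.282, 0.36, 0.439, 0.387 and 0.503 in mTg, and 0.667, 0.842, 0.72, 0.544 and 0.833 in controls. Every mTg library was below every control library, whereas the lowest Ex library lay below all controls and the other Ex libraries lay among them. *Pax7* averaged 0.394 ± 0.0831 FPKM in mTg and 0.721 ± 0.124 in controls (SD, n = 5 each), a difference of -0.30 ± 0.07 (SE) on the log2(FPKM + 1) scale (limma, adjusted p = 0.00374). This scale understates changes of genes near or under 1 FPKM, and on the recovered reads, where *Pax7* had 18 to 26 reads per library in mTg and 36 to 58 in controls, the voom log2 fold change was -0.87 (adjusted p = 0.00214). The mTg mean of *Pax7* was under the 0.5 FPKM filter, which the gene passed through its Ex and control levels. The exact permutation test, which needs no filter, gave p = 0.00794 for mTg against control and 0.0159 for Ex against mTg. In Ex *Pax7* averaged 0.682 ± 0.145 FPKM, which differed from controls by -0.03 ± 0.08 (limma, adjusted p = 0.817) and from mTg by 0.27 ± 0.08 (limma, adjusted p = 0.0122). The Ex against control sign was positive without Ex replicate 1 (0.02), a difference far inside its error.

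*Myf5*, a basic helix-loop-helix factor that marks commitment to the myogenic lineage, was the member most lowered in mTg relative to its control level. Its FPKM were 0.76, 0.674, 0.269, 0.344 and 0.613 in Ex, 0.161, 0.317, 0.312, 0.298 and 0.238 in mTg, and 0.608, 0.685, 0.503, 0.775 and 0.825 in controls. The highest mTg library was below the lowest control library, and Ex spanned both groups. *Myf5* fell to 0.265 ± 0.0663 FPKM in mTg, against 0.679 ± 0.129 in controls (SD, n = 5; exact two-sided permutation test of log2(FPKM + 1), p = 0.00794, the smallest that 5 against 5 libraries can give). These values rest on 5 to 9 reads per library in mTg and 16 to 28 in controls, and limma with no filter on low values gave an adjusted p of 0.000194. Ex, at 0.532 ± 0.214 FPKM, did not pass against controls (p = 0.222, exact permutation test) and was higher than mTg at p = 0.0476 (exact permutation test). That last p was above 0.05 in 8 of 10 repeats that left out 1 library, at 0.0952 without any of Ex replicates 1, 2 and 5 or mTg replicates 1 and 5, and 0.0635 without Ex replicate 4 or mTg replicates 3 and 4.

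*Cdh15* encodes M-cadherin, the adhesion protein between satellite cells and the fiber, and was the most abundant member. It had 8.48, 8.87, 8.43, 8.59 and 9.04 FPKM in Ex, 4.61, 3.22, 3.78, 4.83 and 4.39 in mTg, and 8.78, 9.73, 8.4, 8.58 and 7.56 in controls. The 10 Ex and control libraries lay close together and the 5 mTg libraries lay well apart below them. *Cdh15* fell to 4.17 ± 0.657 FPKM in mTg, against 8.61 ± 0.782 in controls (SD, n = 5), a difference of -0.90 ± 0.09 on the log2 scale (limma, adjusted p = 5.19e-06). Between Ex and mTg the difference was 0.92 ± 0.09 (limma, adjusted p = 1.63e-06). Ex averaged 8.68 ± 0.263 FPKM and differed from controls by 0.01 ± 0.06 (limma, adjusted p = 0.914). Without control replicate 5 this difference was -0.03, again inside its error. In controls *Cdh15* averaged far above *Pax7* (8.61 against 0.721 FPKM). The part of fibers or other cells in the *Cdh15* values was not tested.

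*Megf10*, a receptor known from mouse satellite cells and from engulfing cells, was the least abundant member. It had 0.276, 0.262, 0.364, 0.246 and 0.209 FPKM in Ex, 0.178, 0.205, 0.211, 0.138 and 0.077 in mTg, and 0.253, 0.231, 0.226, 0.189 and 0.18 in controls. The groups overlapped in every pair, from 7 to 44 reads per library. Neither Ex (p = 0.0873) nor mTg (p = 0.0873, both exact permutation tests) passed against controls, and Ex was higher than mTg (0.271 ± 0.0578 against 0.162 ± 0.0555 FPKM, SD, n = 5; exact permutation p = 0.0159). In limma with no filter the adjusted p for Ex against mTg was 0.0595. Without Ex replicate 5 the exact p for Ex against control was 0.0317.

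*Vcam1* encodes a surface adhesion protein used to sort quiescent satellite cells and also made by endothelium. It had 1.24, 1.55, 1.56, 1.62 and 1.28 FPKM in Ex, 1.67, 1.73, 1.87, 1.75 and 2.02 in mTg, and 1.59, 1.52, 1.6, 1.22 and 1.25 in controls. Each mTg library was above each library of both other groups, by a narrow margin. *Vcam1* averaged 1.81 ± 0.138 FPKM in mTg and 1.43 ± 0.187 in controls (SD, n = 5), a difference of 0.21 ± 0.07 (limma, adjusted p = 0.0299). Ex was lower than mTg by 0.20 ± 0.07 on the same scale (limma, adjusted p = 0.0374), and its difference from controls was 0.01 ± 0.07 (adjusted p = 0.951). The mTg against control call was lost without mTg replicates 3 (adjusted p = 0.057) or 5 (0.0746) or control replicates 4 (0.0821) or 5 (0.0683), and the Ex against mTg call without Ex replicates 1 (0.091) or 5 (0.0891) or mTg replicates 3 (0.0681), 4 (0.0512) or 5 (0.0919).

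*Chrdl2*, a secreted chordin-like protein that binds bone morphogenetic proteins, had 0.354, 1.02, 1.37, 1.63 and 1.01 FPKM in Ex, 0.427, 0.298, 0.922, 0.681 and 1.01 in mTg, and 0.846, 0.649, 1.06, 1.05 and 0.891 in controls. The groups overlapped in all pairs, and Ex replicate 1 was far below the other Ex libraries. None of the 3 comparisons passed, with limma adjusted p of 0.719 for Ex against control, 0.179 for mTg against control and 0.16 for Ex against mTg. Without Ex replicate 1 the last of these passed (adjusted p = 0.0181, 0.45 on the log2 scale).

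*Heyl* encodes a Notch-induced transcriptional repressor expressed in satellite cells and in vascular smooth muscle. It had 4.27, 4, 3.93, 4.6 and 4.44 FPKM in Ex, 4.5, 3.98, 7.15, 7.28 and 8.48 in mTg, and 3.92, 4.42, 2.43, 2.24 and 3.79 in controls. mTg replicates 3, 4 and 5 were above every Ex and control library. Replicate 1 of mTg (4.5) was just above the highest control (4.42), and replicate 2 (3.98) lay among the controls. *Heyl* averaged 6.28 ± 1.94 FPKM in mTg and 3.36 ± 0.97 in controls (SD, n = 5), a difference of 0.73 ± 0.19 (limma, adjusted p = 0.00755) that held without any single library (highest adjusted p = 0.022). Ex averaged 4.25 ± 0.286 FPKM and was 0.30 ± 0.13 above controls (limma, unadjusted p = 0.0445, adjusted p = 0.176). Ex was below mTg by 0.43 ± 0.15 on the same scale (limma, adjusted p = 0.0365), a call lost without Ex replicates 1 (0.0586), 2 (0.073), 3 (0.0737) or 5 (0.0526) or mTg replicates 3 (0.0829), 4 (0.0854) or 5 (0.0937).

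*Hey1*, the second Notch-induced repressor of the list and also made by endothelium, had 2.1, 2.55, 3.7, 2.3 and 3.32 FPKM in Ex, 2.64, 3.32, 2.94, 3.5 and 3.37 in mTg, and 2.41, 2.05, 2.88, 2.31 and 2.67 in controls. Of the mTg libraries 4 were above all controls and Ex covered most of the whole range. *Hey1* averaged 3.16 ± 0.357 FPKM in mTg and 2.47 ± 0.32 in controls (SD, n = 5), a difference of 0.26 ± 0.08 (limma, adjusted p = 0.0221). That call was lost without mTg replicates 4 (adjusted p = 0.0541) or 5 (0.0527) or control replicates 2 (0.0598) or 4 (0.0521). Ex, at 2.79 ± 0.685 FPKM, differed by 0.12 ± 0.11 from controls (limma, adjusted p = 0.557) and by -0.15 ± 0.11 from mTg (adjusted p = 0.323), neither past the threshold.

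Counted over the 6 members tested, mTg against control called 3 higher and 2 lower, with *Chrdl2* not called. Over all 11674 genes tested, 22.3% were called higher and 23.1% lower in mTg, so a call in mTg is common among all genes. Of all 8 members, 4 had mTg and control libraries that did not overlap, and over the 12529 genes of the table this held for 30.9%. Ex against control called 0 of 6 members, with 1 at an unadjusted limma p under 0.05 and 0 called by voom on the recovered reads. Among all genes 5.39% were called higher and 5.02% lower in Ex. The Ex and control libraries did not overlap for 9.32% of all genes and for 0 of the 8 members. With so few members, 0 cannot be set apart from these shares. On a TPM scale the all-gene calls of Ex against control were 1224 higher and 208 lower, beside 629 higher and 586 lower in FPKM, and the members called stayed at 0.

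Ex against mTg called 4 of 6 members, *Pax7* and *Cdh15* higher and *Vcam1* and *Heyl* lower in Ex, where 20.7% of all genes were called higher and 20.7% lower in Ex. The libraries of *Cdh15* and *Vcam1* did not overlap, as was the case for 28% of the genes in the table. On a TPM scale *Vcam1* (adjusted p = 0.123) and *Heyl* (0.0742) were not called. The median log2 difference of the 6 members was 0.06 for Ex against control, 0.00 for mTg against control and 0.06 for Ex against mTg, beside -0.01, -0.02 and 0.02 over all genes tested.

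**Figure D2:**
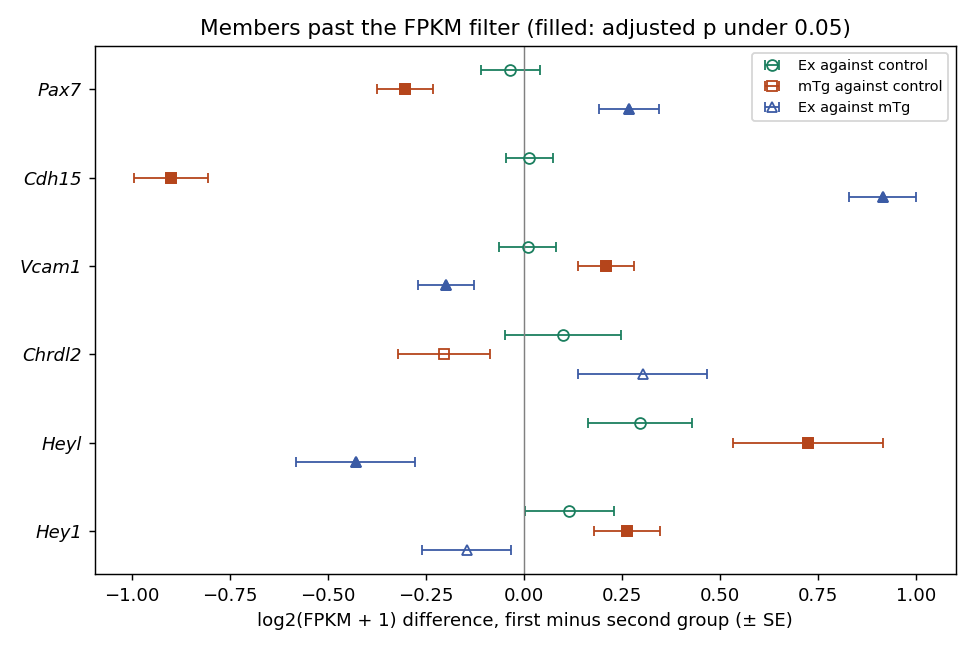
Log2(FPKM + 1) difference (horizontal axis, with its standard error) of the 6 members past the FPKM filter in the 3 comparisons, filled where the limma adjusted p is under 0.05. *Cdh15* shows the widest separation, -0.90 for mTg against control and 0.92 for Ex against mTg, while all Ex against control symbols are open.

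The markers of the other cells in the muscle were measured beside the members, since *Vcam1*, *Heyl* and *Hey1* are also vascular genes. The 12 endothelial genes summed to 227 to 268 FPKM in Ex, 263 to 351 in mTg and 172 to 213 in controls. Both Ex and mTg lay above all controls (exact permutation p = 0.00794 each, adjusted p = 0.0595 over 15 tests). That exact p is the smallest that 5 against 5 libraries can give. Reached by only these sums among 15 tests, it cannot give an adjusted p under 0.05. Without control replicate 5 the exact permutation p of both rose to 0.0159, the smallest that 4 against 5 libraries can give. Their adjusted p of 0.0477 came from other sums tied at that p and is not a stronger result. Of the 12 genes, 10 were called higher in mTg and 4 in Ex, beside 22.3% and 5.39% of all genes tested. *Pecam1*, the platelet and endothelial adhesion molecule, was at 30.6 ± 1.51 FPKM in Ex and 25.8 ± 2.26 in controls. The *Pecam1* call (limma, adjusted p = 0.0294) was lost without Ex replicates 1 to 4 or control replicates 3 or 4 (0.0553 to 0.0743). *Tie1*, an endothelial receptor, was at 26.6 ± 3.9 FPKM in mTg and 14.7 ± 0.908 in controls (limma, adjusted p = 1.51e-05).

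*Heyl* and the endothelial sum were high in the same mTg libraries. The sum was 335, 343 and 351 FPKM in mTg replicates 3, 4 and 5, where *Heyl* was highest, and 269 and 263 in replicates 1 and 2. Among controls the sum was lowest in replicates 3 (188) and 4 (172), where *Heyl* was also lowest. In Ex the highest sum was that of replicate 1 (268), whose *Heyl* (4.27 FPKM) was the middle value of its group, and the highest *Heyl* (4.6) was in replicate 4, with a sum of 229. The smooth muscle and pericyte sum was 198, 230 and 236 FPKM in mTg replicates 3, 4 and 5, and 191 and 212 in replicates 1 and 2. Among controls it was highest in replicate 3 (216) and was 189 in replicate 4. The part of the endothelium or of smooth muscle in the *Heyl*, *Hey1* and *Vcam1* values was not tested. *Pax7* had 0.439, 0.387 and 0.503 FPKM in mTg replicates 3, 4 and 5, against 0.282 and 0.36 in replicates 1 and 2. In Ex the lowest *Pax7* (0.456 FPKM) was in replicate 1, which had the highest endothelial sum. Whether *Pax7* followed the endothelial sum was not tested.

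Smooth muscle and pericyte genes (10) summed to 185 to 197 FPKM in Ex, 191 to 236 in mTg and 184 to 216 in controls, with 5 genes called higher and 1 lower in mTg and 2 higher and 2 lower in Ex. For this and the next lists, 22.3% of all genes tested were called higher and 23.1% lower in mTg. In Ex these shares were 5.39% and 5.02%. *Cspg4*, a pericyte proteoglycan, was higher in Ex (3.48 ± 0.227 FPKM) than in controls (2.51 ± 0.194; limma, adjusted p = 0.00379). *Acta2*, smooth muscle actin, was lower in Ex (18.3 ± 1.37 FPKM) than in controls (28.3 ± 4.62; limma, adjusted p = 0.00379). The fibroblast sum was 894 to 1270 FPKM in Ex, 891 to 1340 in mTg and 988 to 1280 in controls, and the macrophage sum, over 11 of 12 genes, 92.5 to 160 FPKM in Ex, 114 to 192 in mTg and 91.1 to 132 in controls. *Pdgfra*, the receptor that marks fibro-adipogenic progenitors, had 5.18 ± 0.601 FPKM in Ex, 4.44 ± 0.709 in mTg and 4.98 ± 0.505 in controls. *Adgre1*, which encodes the macrophage antigen F4/80, had 1.19 ± 0.134 FPKM in Ex, 1.73 ± 0.424 in mTg and 1.35 ± 0.258 in controls, and neither gene passed against controls. Other genes of these lists were called in mTg, with 3 of 12 fibroblast genes higher and 3 lower and 4 of 11 macrophage genes higher. *Col3a1*, a fibrillar collagen, was at 104 ± 27.7 FPKM in mTg and 68 ± 4.6 in controls (limma, adjusted p = 0.00427), and *Pi16*, a fibroblast gene, at 11.3 ± 3.25 in mTg and 20.5 ± 3.38 in controls (adjusted p = 0.00125). *Ptprc*, the pan-leukocyte antigen CD45, was at 1.27 ± 0.213 FPKM in mTg and 0.608 ± 0.0992 in controls (limma, adjusted p = 0.000212). The Schwann cell sum was 51.3 to 57.9 FPKM in Ex, 34.5 to 59 in mTg and 56.5 to 71.4 in controls, with 5 of 7 tested genes called lower in mTg. None of the 15 sums passed at an adjusted p under 0.05 with all libraries, where the smallest possible exact p is a limit, as stated above. Without control replicate 5 the Schwann cell sums had exact permutation p = 0.0159 and adjusted p = 0.0477 in Ex and in mTg. That exact p is the smallest for 4 against 5 libraries and was shared with the endothelial sums. No marker present in the table was at 0 in all libraries. The part of these cells in the member values was not tested.

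**Figure D3:**
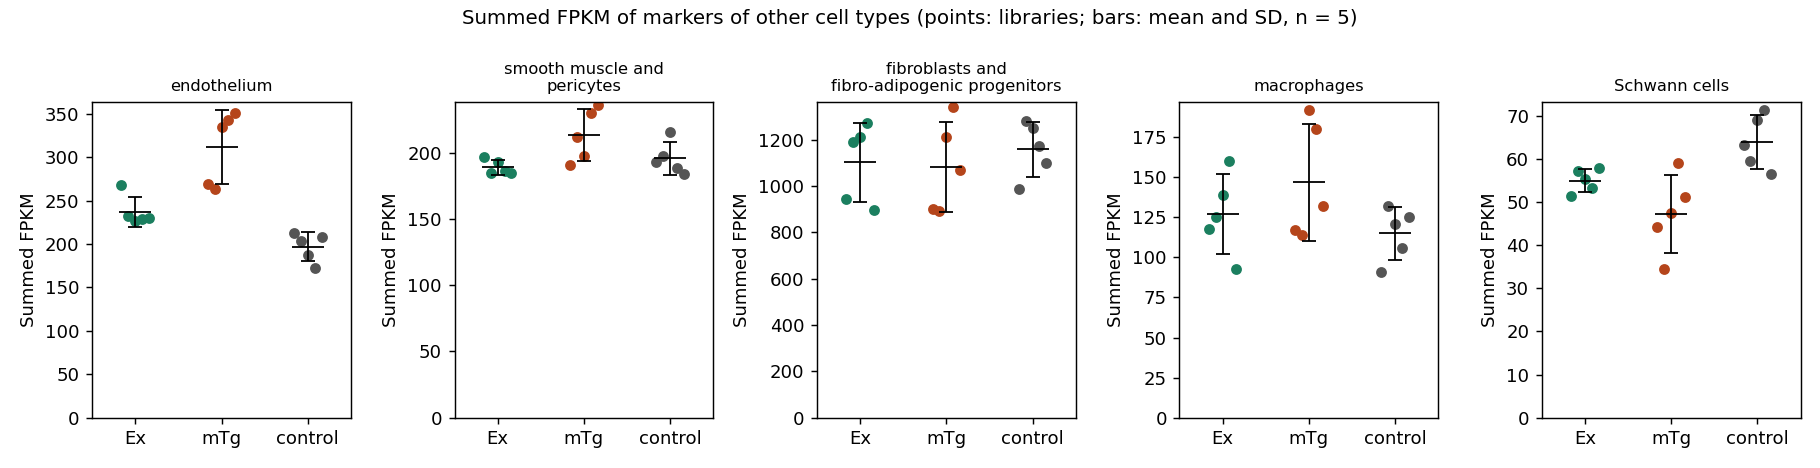
Summed FPKM of the marker genes of 5 other cell types in each library (points) of Ex, mTg and control, with mean and SD as bars. Endothelial sums are 227 to 268 in Ex and 263 to 351 in mTg, all above the controls (172 to 213), and the lowest Schwann cell sum, 34.5, is that of an mTg library.

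Of 16 other genes known from satellite cells, 13 were tested. In them 3 were called higher and 6 lower in mTg, and 3 higher and 3 lower in Ex, with median differences of -0.26 and 0.09. Over all genes tested, 22.3% were called higher and 23.1% lower in mTg, and 5.39% and 5.02% in Ex. Among the listed genes lower in mTg was *Cd82*, a surface tetraspanin, at 2.82 ± 0.529 FPKM in mTg and 6.29 ± 1.5 in controls (limma, adjusted p = 9.8e-05). *Asb5* was at 63.8 ± 8.59 FPKM in mTg and 174 ± 21.6 in controls (adjusted p = 1.44e-07), and at 115 ± 14.8 in Ex (adjusted p = 0.00304 against controls), a level far above that of *Pax7*. *Cxcr4*, a chemokine receptor, was higher in mTg, at 3.72 ± 0.645 FPKM and 1.65 ± 0.19 in controls (limma, adjusted p = 1.48e-05). *Ncam1* was higher in Ex, at 1.7 ± 0.359 FPKM and 0.928 ± 0.104 in controls (limma, adjusted p = 0.00657).

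Of 21 Notch pathway genes tested, 9 were called higher and 1 lower in mTg, 2 higher and 0 lower in Ex, and 0 higher and 7 lower in Ex against mTg. All genes tested had 22.3% called higher and 23.1% lower in mTg, and 5.39% and 5.02% in Ex. In Ex against mTg these shares were 20.7% and 20.7%. *Dll4*, an endothelial Notch ligand, was at 6.01 ± 0.615 FPKM in mTg and 3.67 ± 0.662 in controls (limma, adjusted p = 0.000294), and *Nrarp*, a Notch-induced feedback inhibitor, at 5.56 ± 1.44 in mTg and 3.23 ± 1.27 in controls (adjusted p = 0.0176). *Adam17*, a protease of the pathway, was higher in both, at 8.21 ± 0.827 FPKM in Ex, 9.08 ± 0.682 in mTg and 6.34 ± 0.274 in controls (limma, adjusted p = 0.00927 for Ex and 9.12e-05 for mTg). Several of these genes are also vascular genes. The endothelial sums, which lay above all controls in both Ex and mTg, are given above, and their part in these calls was not tested.

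Of 23 BMP pathway genes, the pathway of *Chrdl2*, 4 were called higher and 7 lower in mTg and 1 lower in Ex. The shares over all genes tested were 22.3% higher and 23.1% lower in mTg, and 5.39% and 5.02% in Ex. *Bmp6*, a ligand, was at 7.34 ± 1.78 FPKM in mTg and 4.01 ± 1.5 in controls (limma, adjusted p = 0.00419), and *Acvr1*, a receptor, at 3.58 ± 0.761 in mTg and 6.63 ± 0.814 in controls (adjusted p = 0.000199). *Chrd*, encoding the antagonist chordin, was lower in mTg, at 1.38 ± 0.514 FPKM and 2.19 ± 0.261 in controls (adjusted p = 0.0131). *Bmpr1b*, a receptor, was the gene called lower in Ex (0.993 ± 0.0687 FPKM, controls 1.43 ± 0.164; adjusted p = 0.0141).

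Of 6 tested myogenic differentiation genes, 0 were called higher and 2 lower in mTg, and 1 lower in Ex. Beside them, 22.3% of all genes tested were called higher and 23.1% lower in mTg, and 5.02% lower in Ex. *Myf6* (MRF4), the factor of mature fibers, was at 49.7 ± 7.16 FPKM in Ex, 29.4 ± 5.21 in mTg and 68.1 ± 6.66 in controls, lower in both (limma, adjusted p = 0.0115 for Ex and 2.08e-06 for mTg). *Cdkn1a*, a cell cycle inhibitor, was lower in mTg (5.32 ± 1.62 FPKM, controls 11.2 ± 2.82; limma, adjusted p = 0.000792). *Myod1*, a myogenic factor that activated satellite cells express, had 8.31 ± 1.48 FPKM in Ex, 10.7 ± 3.12 in mTg and 11.4 ± 2.76 in controls, a level far above that of *Pax7*. *Myog*, the factor of differentiation, had 4.06 ± 0.967 FPKM in Ex, 3.21 ± 1.09 in mTg and 3.29 ± 0.665 in controls, and neither gene passed against controls.

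Of 5 embryonic and regenerating fiber genes, *Myh3*, the embryonic myosin, was called higher in Ex, at 0.975 ± 0.426 FPKM and 0.398 ± 0.0913 in controls (limma, adjusted p = 0.0237), and the call was lost without control replicate 4 (adjusted p = 0.0546). In mTg *Myh3* had 0.612 ± 0.122 FPKM (adjusted p = 0.0362), a call lost without mTg replicates 1, 2 or 4 or control replicates 2 to 5 (0.0572 to 0.0799). *Actc1*, cardiac actin, was lower in mTg, at 57.4 ± 21.6 FPKM and 354 ± 114 in controls (adjusted p = 1.46e-06). Of 16 cell division genes, 10 were in the table and 5 were tested. Of these 5, 2 were called higher in Ex, beside 5.39% of all genes tested. In mTg 2 were called higher and 1 lower, beside 22.3% and 23.1% of all genes tested. The other cell division genes in the table, *Mki67*, *Top2a*, *Ccna2*, *Mcm5* and *Tyms*, were under the FPKM filter and were not tested. Each averaged higher in mTg than in controls, with *Mki67* at 0.248 ± 0.0679 FPKM in mTg, 0.111 ± 0.0642 in Ex and 0.0766 ± 0.0198 in controls. *Rrm2*, a subunit of the enzyme that makes DNA precursors, was higher in both, at 0.912 ± 0.145 FPKM in Ex, 1.44 ± 0.38 in mTg and 0.423 ± 0.114 in controls (limma, adjusted p = 0.00446 for Ex and 4.07e-05 for mTg). The control means of *Rrm2* and *Myh3* were under the 0.5 FPKM filter, which both genes passed through their Ex and mTg levels.

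**Figure D4:**
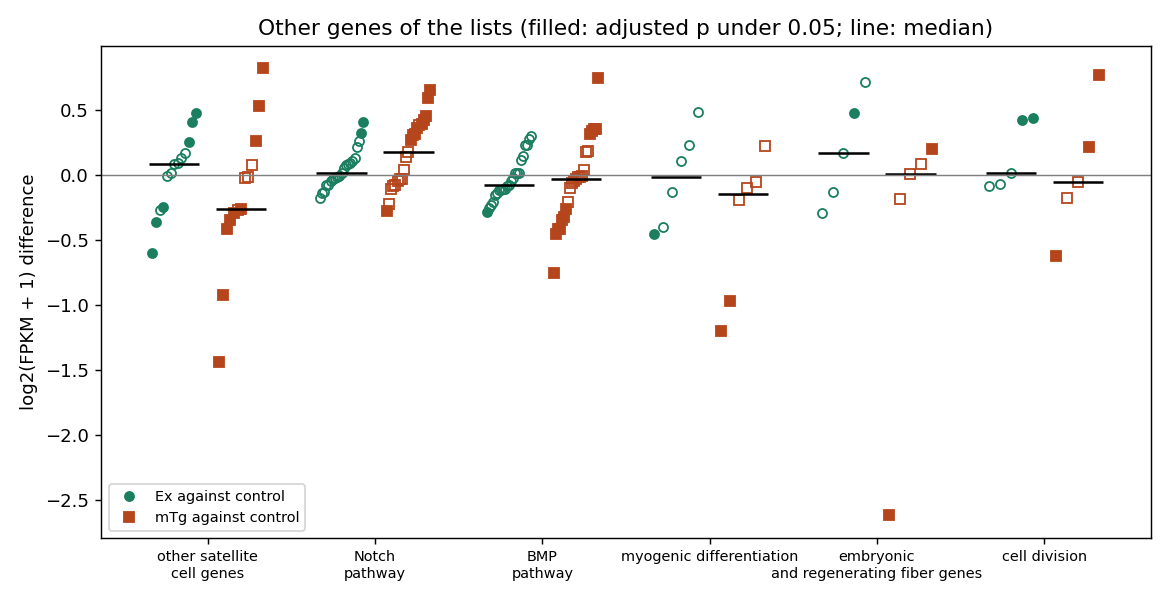
Log2(FPKM + 1) difference of each tested gene of 6 lists, in Ex against control (circles) and mTg against control (squares), filled where the limma adjusted p is under 0.05, with the median of each list as a line. The Notch pathway median is 0.18 in mTg and 0.02 in Ex, and the median of the other satellite cell genes is -0.26 in mTg and 0.09 in Ex.

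For the 4 members with a mean of at least 1 FPKM, the genes with the highest Pearson correlation (r) with them are given as a description. It was taken on log2(FPKM + 1) across the 15 libraries after subtracting the group means. For *Cdh15* these were *Smarcc2* (r = 0.889), *A330023F24Rik* (0.86) and *Ksr1* (0.851), and for *Heyl* *Afap1l2* (0.888), *Tspan18* (0.883) and *Zfp750* (0.881). For *Vcam1* they were *Rsu1* (0.836), *Fubp1* (0.819) and *Arf6* (0.818), and for *Hey1* *Pus7* (0.86), *Snhg12* (0.85) and *Klf9* (0.835). By Spearman rank correlation the *Cdh15* genes were at 0.721, 0.754 and 0.925 in that order, and those of the other members at 0.821 to 0.871. All libraries share a preparation kit, and the Pearson values are the highest among all genes tested.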

How the data were processed

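Quadriceps RNA was sequenced as polyadenylated, stranded libraries. Per the submitters' processing notes and the study's methods, STAR was the authors' aligner (mm10) and DESeq2, in application version 1.1.0, their test. Sources used here do not name the counting tool or annotation. FPKM were used as deposited by the authors; the mTg columns were scaled in a normalization of their own, in which the control values differ by 0.993 to 1.01. The deposited tables of changed genes also hold fold changes and p-values, which were not used. Of the 12529 symbols, 21 had been turned into dates.

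Testing covered genes whose average over 15 libraries reached 0.5 FPKM, on log2(FPKM + 1) with limma 3.58.1 (in R 4.3.3, mean-variance trend, two-sided, 10 libraries per comparison, Benjamini-Hochberg, 0.05). Members under the filter, *Pax7* and marker sums had exact permutation tests (SciPy 1.17.1). Whole reads were recovered for 12529 genes (tolerance 0.01). Replicates differed by more than counting noise. All 8 members were named in each library, and of each other list up to 4 genes called with the largest change. A marker gene that this rule would name is not reported here. The members and lists were chosen with earlier results of these data known. The fits were tested on simulated data. Alternatives were other pseudocounts, filters, scalings, voom, 1 joint fit, a replicate block and leaving out each library.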

Additional observations from a re-analysis of the deposited data

Results flagged for a closer look

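In Ex, replicate 1 had an endothelial marker sum of 268 FPKM, and the other 4 Ex libraries lay between 227 and 232. This gap is larger than expected for 1 of 5 libraries by Dixon's test (critical value 0.71), of 42 groups of 5 screened over the members, *Ppargc1a* and the 5 marker sums. Chance alone raises about 1 group in 20.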

How the results depend on the processing

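By limma and voom, members called in Ex against control stayed at 0 under all alternatives run, while the exact test of *Megf10* passed on the TPM scale and without Ex replicate 5 (p = 0.0317). In mTg against control 5 members were called, and 3 to 5 when 1 library was left out. In Ex against mTg 4 were called, 2 on the TPM scale, and 2 to 4 when 1 library was left out. With a replicate block, *Vcam1* had adjusted p = 0.0633 in mTg against control and 0.0733 in Ex against mTg, so 4 and 3 members were called. Same-numbered libraries did not deviate together (r from -0.216 to 0.189), so the numbers do not pair the samples. *Pax7* and *Cdh15* kept their calls in mTg against control and Ex against mTg in every fit that tested them. In 1 fit of all 15 libraries *Hey1* in mTg against control had adjusted p = 0.0515.

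Signs turned only where differences between groups were small. For Ex against control the log2 difference of *Pax7* was 0.0033 by TPM and -0.0731 to 0.0164 over left-out libraries. That of *Cdh15* was -0.027 to 0.0547, of *Vcam1* -0.023 to 0.0416, and of *Ppargc1a* -0.271 to 0.0193. For summed markers in Ex against control, the log2 ratio of group means by TPM was 0.0435 for smooth muscle and 0.022 for fibroblasts. In Ex against mTg the log2 ratio of fibroblast sums ranged from -0.0368 to 0.1124 over left-out libraries. Without 1 library, log2 ratios of endothelial sums to those of controls ranged from 0.2204 to 0.297 in Ex and 0.6205 to 0.7224 in mTg. Log2 ratios of Schwann sums ranged from -0.2605 to -0.1762 in Ex and -0.5278 to -0.3417 in mTg. *Myf5* in Ex against mTg was 0.7384 with a pseudocount of 0.1 and 0.2642 by median-of-ratios, both p = 0.0556 (exact permutation), and 0.2133 to 0.3313 over left-out libraries. *Megf10* was 0.082 by TPM in Ex against control (p = 0.0476, exact permutation), 0.0377 to 0.0815 over left-out libraries, and 0.1302 with no filter in Ex against mTg (adjusted p = 0.0595). Over all genes, Ex against control called 1215, and 755 to 1442 without 1 library (767 without Ex replicate 3, 765 without control replicate 3, 755 without control replicate 4). Some alternatives were chosen after seeing the data: those for marker sums, all but 2 for the members under the filter, voom with no filter (6 of 8 members called in mTg against control and 6 in Ex against mTg) and controls rescaled to the mTg normalization (5 called). *Myf5* and *Megf10* rest on few reads, which limits what can be detected.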
